A study of Mus musculus with 6 samples.

Results

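The 10 genes described here encode inflammatory cytokines and chemokines, namely *Il1b*, *Il6*, *Tnf*, *Lif*, *Ccl2*, *Ccl3*, *Ccl4*, *Cxcl1*, *Cxcl2* and *Cxcl10*. They were taken by symbol from the 26903 genes listed in at least 1 of the 6 count matrices, and all 10 were measured. Single cells were prepared from kidney cortex of mice aged 9 months, 3 wild type (WT) and 3 with global knockout of *Prdm16* (KO), each mouse giving 1 BD Rhapsody library. In the KO mice exon 2 of *Prdm16*, a zinc finger transcription regulator, was removed by CRISPR-Cas9, which shifts the reading frame of what follows. No other allele or treatment was given for either group, and per the labels all mice were male.

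IL-1β and TNF are the alarm cytokines of innate immunity. They bind their receptors on neighbouring cells and start NF-kB signalling, which in turn induces IL-6, LIF and the chemokines. The CC chemokines CCL2, CCL3 and CCL4 draw monocytes, macrophages and lymphocytes, CXCL1 and CXCL2 draw neutrophils through CXCR2, and CXCL10, an interferon-induced chemokine, draws T cells through CXCR3. In the kidney these signals come from resident macrophages, from infiltrating leukocytes and also from tubular cells under stress. Many of these genes are induced early in a stress response, and enzymatic digestion of tissue is a known inducer of them.

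On the GRCm38 (mm10) assembly the genes lie in several clusters, all annotated as protein coding. *Cxcl1* (chr5:90891241-90893115), *Cxcl2* (chr5:90903871-90905938) and *Cxcl10* (chr5:92346638-92348889) share a stretch of chromosome 5, where *Il6* (chr5:30013114-30019981) also lies. *Ccl2* (chr11:82035571-82037453), *Ccl3* (chr11:83647844-83649355) and *Ccl4* (chr11:83662584-83664683) lie on chromosome 11, as does *Lif* (chr11:4257557-4272514). *Il1b* is at chr2:129364570-129371139 and *Tnf* at chr17:35199381-35202007.

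The promoters of 4 members are shown because they hold a match to the NF-kB-type motif GGGANNTTCC, searched on both strands (the other strand reads GGAANNTCCC). RefSeq promoters (GRCm38.p6, 250 bases before to 50 after the start) were at hand for 8 members, and of all 32851 promoters of this length 1.47% held the motif. The motif was chosen with these promoters in view. Each line gives 80 bases upstream of the start, 5′ to 3′ in the direction of the gene, with the match in capitals. The windows are chr5:30013034-30013113 (plus strand), chr5:90891139-90891218 (plus strand), chr5:90903767-90903846 (plus strand) and chr5:92349004-92349083 (minus strand).
Il6: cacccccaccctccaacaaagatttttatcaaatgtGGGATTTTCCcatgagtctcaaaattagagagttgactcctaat
Cxcl1: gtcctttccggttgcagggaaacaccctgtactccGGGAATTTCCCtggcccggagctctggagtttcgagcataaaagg
Cxcl2: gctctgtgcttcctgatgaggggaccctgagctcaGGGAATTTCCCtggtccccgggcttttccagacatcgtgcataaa
Cxcl10: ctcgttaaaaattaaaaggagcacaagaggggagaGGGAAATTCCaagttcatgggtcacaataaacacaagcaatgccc
The first base of the match lies 44 bases before the start in *Il6*, 71 in *Cxcl1*, 97 in *Cxcl2* and 159 in *Cxcl10*. In *Cxcl1* and *Cxcl2* the same 11 bases, GGGAATTTCCC, hold 2 overlapping matches, 1 on each strand. These letters were absent from the windows of *Il1b*, *Tnf*, *Lif* and *Ccl3*. A match is a string of letters only, and nothing was measured on binding.

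After filtering, 28488 cells were retained, 3538 to 6276 per library, with 22965576 to 35466580 unique molecular identifiers (UMIs, the counted transcript molecules) per library. Levels are given as counts per 1000000 UMIs (CPM) of the cells named. *Prdm16* itself stood at 32.1, 26.7 and 27.1 CPM in the WT libraries and 21.2, 25.3 and 23.6 CPM in the KO libraries, and counts over the whole gene do not check a deletion of exon 2. WT library 2 and KO library 1 carried *Xist* at 297 and 307 CPM with almost no Y-linked UMIs, against their male label. For the 4 other libraries, results are also given for *Il1b*, *Cxcl2* and *Ccl3* over all cells and for the 2 calls of members within classes. From 2 to 6 of the retained barcodes of a library recurred in another library. Clusters were built without the 10 genes and named by marker genes. *C1qb* and *C1qc* were among the leading genes of the macrophage-like cluster, *S100a8* and *S100a9* of the neutrophil-like cluster, and *Nos1*, *Pappa2* and *Ptgs2* of the macula densa-like cluster. *Ccl4*, *Ccl3* and *Tnf* stood among the 10 leading genes of the macrophage-like cluster and *Lif* among those of the PC-like cluster, though none of them was used to form it. The tubular classes are proximal convoluted tubule (PCT), descending limb (DLH), loop of Henle (LOH), distal convoluted tubule (DCT), connecting tubule (CNT), principal cell (PC) and intercalated cell (IC). The DLH-like name is loose, as that cluster scored 1.84 for the DLH markers and 1.6 for parietal epithelial markers. Of the DLH markers only *Fst* and *Aqp1* were among its 10 leading genes. PCT-like cells, which make up much of the cortex in the intact kidney, were 0.175% to 5.33% of the cells of a library.

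The 10 genes fell into 3 patterns of cellular source. *Tnf*, *Ccl2*, *Ccl3* and *Ccl4* came mostly from macrophage-like cells, and *Il1b* and *Cxcl2* from neutrophil-like and macrophage-like cells. The last pattern, by share of UMIs, held *Lif* and *Cxcl10*, mostly from tubular cells, and *Cxcl1*, mostly from tubular and stromal cells. Per UMI *Cxcl10* was highest in macrophage-like cells. The leading tubular shares of *Cxcl10* and *Cxcl1* moved with the mitochondrial limit or the drawing of classes, as given below. *Il6* was rare, with 165 UMIs in all. Levels are compared between cell classes for 1 gene at a time, never between genes.

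**Figure D1:**
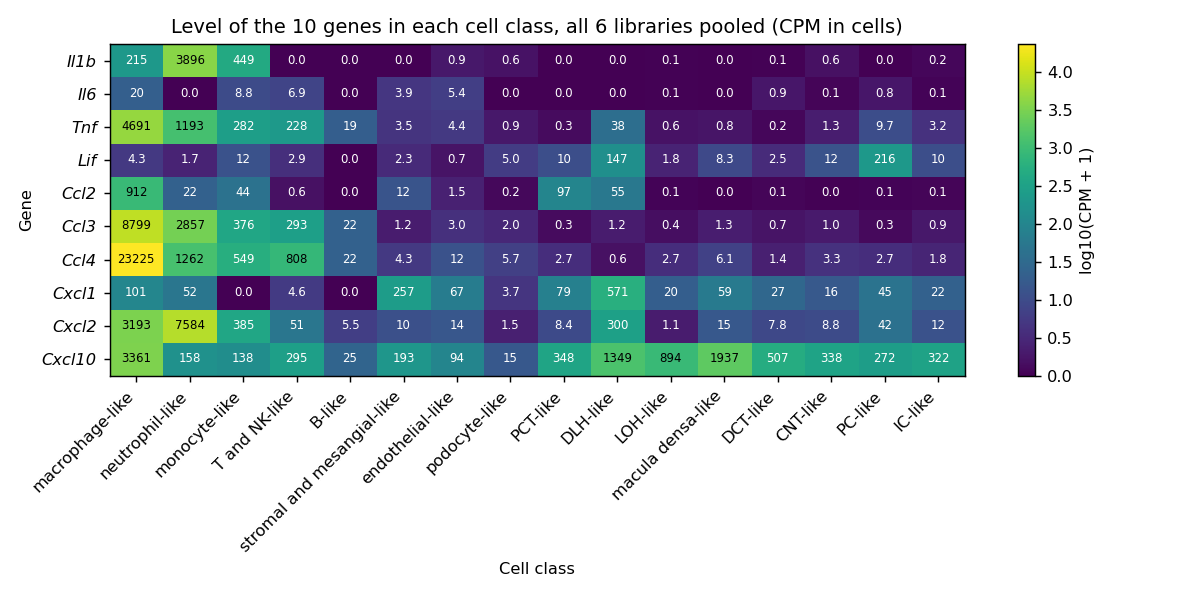
Each cell of the grid gives the CPM of 1 gene (row) in 1 cell class (column), with the UMIs of the 6 libraries pooled, and the colour gives log10(CPM + 1). *Il1b* was highest in neutrophil-like cells (3896 CPM), *Ccl4* in macrophage-like cells (23225 CPM), *Lif* in PC-like cells (216 CPM) and *Cxcl1* in DLH-like cells (571 CPM).

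Among the macrophage genes, *Tnf*, the gene of tumour necrosis factor, stood at 1928, 4881 and 6186 CPM in the WT libraries and 4726, 6817 and 5909.6 CPM in the KO libraries in macrophage-like cells. WT library 1 was the lowest and the other 5 overlapped. Macrophage-like cells held a median of 86.9% (80.7% to 92.8%) of the *Tnf* UMIs of a library. Neutrophil-like cells followed with 1057 CPM in WT library 2 and 934, 1877 and 1103 CPM in the KO libraries, the only 4 libraries with at least 20 such cells. T and NK-like cells came next, at 231 ± 26 CPM (SD, n = 6). The 3 ranges did not overlap among the libraries with at least 20 cells of the class.

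*Ccl3* and *Ccl4*, neighbours on chromosome 11, had the same order of classes. *Ccl3* stood at 4339, 6094 and 14045 CPM in the WT libraries and 7699, 13410.3 and 14172 CPM in the KO libraries in macrophage-like cells, and *Ccl4* at 12536, 19541 and 37152 CPM in the WT libraries and 19538, 33303 and 32581 CPM in the KO libraries. For both, WT library 1 was lowest of all, and WT library 3 was at or near the top. Macrophage-like cells held a median of 87.5% (75.7% to 95.9%) of the *Ccl3* UMIs and 95.3% (93.5% to 96.4%) of the *Ccl4* UMIs. In T and NK-like cells *Ccl4* averaged 834 ± 229 CPM and *Ccl3* 283 ± 113 CPM (SD, n = 6). In the 4 libraries with at least 20 neutrophil-like cells, *Ccl3* there ran from 2239.6 to 4655 CPM, reaching into the macrophage-like range, and *Ccl4* overlapped the T and NK-like values. *Ccl2*, the monocyte attractant, stood at 499.6, 735 and 1480.5 CPM in the WT libraries and 869, 1313 and 1023 CPM in the KO libraries in macrophage-like cells, which held 89.7% (62.6% to 96.3%) of its UMIs. Its lowest source share belonged to WT library 3, in which 34.9% of *Ccl2* UMIs lay in PCT-like cells.

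*Il1b*, whose protein is made as a precursor and cleaved by caspase-1, was the clearest neutrophil gene. In neutrophil-like cells it stood at 7148 CPM in WT library 2 and 4426, 2769.6 and 2529.7 CPM in the KO libraries. In macrophage-like cells it stood at 219, 258 and 152 CPM in the WT libraries and 211, 200.4 and 231 CPM in the KO libraries. The 2 ranges were far apart, and no tubular, stromal or endothelial class exceeded 1 CPM on average over the libraries. The few monocyte-like cells carried *Il1b* at 43.8, 390 and 1832 CPM in the WT libraries and at 103 and 277 CPM in KO libraries 1 and 2. KO library 3 held no such cells. *Cxcl2*, a neutrophil attractant, reached 9591 CPM in the neutrophil-like cells of WT library 2 and 7381, 7756 and 7437 CPM in those of the KO libraries. In macrophage-like cells *Cxcl2* stood at 700.0, 2758 and 4626 CPM in the WT libraries and 3528, 5616 and 3669.9 CPM in the KO libraries, so all 6 macrophage values lay below all 4 neutrophil values. DLH-like cells also carried *Cxcl2*, at 975, 363 and 266 CPM in the WT libraries and 354, 74.3 and 146 CPM in the KO libraries.

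*Cxcl1*, the other CXCR2 ligand, was not mainly myeloid, although its gene is a neighbour of *Cxcl2*. It was highest in DLH-like cells, of which a library held 26 to 54, at 793, 916 and 324 CPM in the WT libraries and 273, 618 and 553 CPM in the KO libraries, and next in stromal and mesangial-like cells, at 215, 367 and 193 CPM in the WT libraries and 173, 128 and 491 CPM in the KO libraries. The 2 ranges overlapped. Macrophage-like cells followed at 127 ± 88.4 CPM (SD, n = 6), overlapping the stromal values. With classes taken from marker scores of single cells, DLH-like cells held 1.76% of *Cxcl1* UMIs on average in place of 16.4%, so this source depends on how the class is drawn. No class held more than a median of 17.2% of its UMIs.

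*Cxcl10* was the most widespread member. Macrophage-like cells had the highest mean among classes present in all libraries, 3757 ± 1390.1 CPM, then macula densa-like cells with 1952 ± 1104 CPM, DLH-like cells with 1352 ± 493 CPM and LOH-like cells with 876 ± 227 CPM (SD, n = 6 each). Each of these neighbours overlapped in range. LOH-like cells, being many, held a median of 39.5% (29.7% to 43.8%) of all *Cxcl10* UMIs, macrophage-like cells 13% (7.32% to 16.3%) and macula densa-like cells 6.06% (4.39% to 16.5%). LOH-like cells are rich in mitochondrial UMIs, and at no more than 30% mitochondrial UMIs they held 3.40% on average in place of 38.3%. Barcodes of 10 to 100 UMIs, which mostly hold free RNA, carried *Cxcl10* at 146 to 241 CPM. Levels at or under that, as in podocyte-like cells, are not read as expression.

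*Lif*, a cytokine of the IL-6 family that signals through gp130 and STAT3, was a principal cell gene. It stood at 34.6, 163 and 539 CPM in the WT libraries and 60.2, 187 and 245 CPM in the KO libraries in PC-like cells, a wide spread within both groups, with WT library 1 lowest and WT library 3 highest. PC-like cells held a median of 56.9% (35.3% to 73.2%) of its UMIs. DLH-like cells were next at 149 ± 147 CPM (SD, n = 6) and overlapped them. *Il6* had 60 UMIs in macrophage-like and 48 UMIs in endothelial-like cells, and none of its class levels was precise. After every cell was thinned to 1000 UMIs, 1.12% of macrophage-like cells had an *Il6* UMI, against 2.21% before thinning and 0% of podocyte-like cells.

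The genes most like each member over the 16 named classes were found by Pearson r of log2(CPM + 1), among 14320 genes that reached 5 CPM in a class. These r values describe 16 classes that share libraries. *Il1b* was most like *Pilra* (r = 0.998), *Tlr13* (0.998) and *Gm46224* (0.996). *Cxcl2* was most like *Tlr2* (0.942), *Gm27010* (0.930) and *Cd14* (0.926), a pair of them encoding receptors for bacterial products. *Tnf* was most like *Skil* (0.942), *Bbc3* (0.927) and *Rnf19b* (0.926). *Ccl3* was nearest to *Lilr4b* (0.970), *Evi2a* (0.969) and *Tyrobp* (0.964), and *Ccl4* to *Rgs1* (0.940), *Tnfaip8l2* (0.925) and *5430427O19Rik* (0.922). *Ccl2* was nearest to *C4b* (0.966), *Oas1g* (0.902) and *Creb5* (0.879), and *Il6* to *P2rx7* (0.935), *Ctla2b* (0.923) and *Pparg* (0.904). The matches of *Il6* rest on its 165 UMIs. *Lif*, *Cxcl1* and *Cxcl10* had looser matches. *Lif* was nearest to *Lypd3* (0.873), *Pak3* (0.868) and *Pi4k2b* (0.854), *Cxcl1* to *Cars* (0.804), *AA388235* (0.802) and *6330403L08Rik* (0.798), and *Cxcl10* to *Hmox2* (0.750), *Cebpa* (0.747) and *Tspoap1* (0.739). Among the members themselves r was highest for *Ccl3* with *Ccl4*, at 0.959. It was 0.942 for *Tnf* with *Ccl3* and 0.899 for *Tnf* with *Cxcl2*, and -0.10 for *Il1b* with *Cxcl1*.

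Within macrophage-like cells *Ccl3*, *Ccl4* and *Tnf* were mostly found in the same cells. Of 679 cells with a *Ccl3* UMI, 653 also had *Ccl4* (96.2%, from 93.9% to 99.0% over libraries), and 605 had *Tnf* (89.1%). Of 271 cells without *Ccl3*, 46.9% had *Ccl4*. *Ccl2* was found in 48.3% of the cells with *Ccl3* and 11.4% of those without. Of 253 cells with *Il1b*, 42.7% had *Cxcl2*, against 34.0% of the 697 cells without. Cells with a UMI of one gene were deeper, with median totals of 3469 UMIs with *Ccl3* and 1060 without, and depth was not held fixed here. In neutrophil-like cells depth was alike (medians 2926 and 3220 UMIs), and 321 of 340 cells with *Il1b* also had *Cxcl2* (94.4%), against 83.3% of the 30 cells without *Il1b*.

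To find out whether the loss of *Prdm16* goes with more inflammatory transcript in the cortex, UMIs of all retained cells were summed per mouse and compared between WT and KO. None of the 10 members passed the threshold (edgeR quasi-likelihood test, adjusted p under 0.05), where 0.969% of all 15178 genes tested did. Unadjusted, 4 of the 10 had p under 0.05, against 15.1% of all genes. The median log2 fold change of the members was 0.56, against 0.00 over all genes, and 9 of the 10 values were above 0. WT library 1 was the lowest library for 7 of the 10 members. The members share cell sources and were chosen with earlier results known, so these are not 10 independent values.

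**Figure D2:**
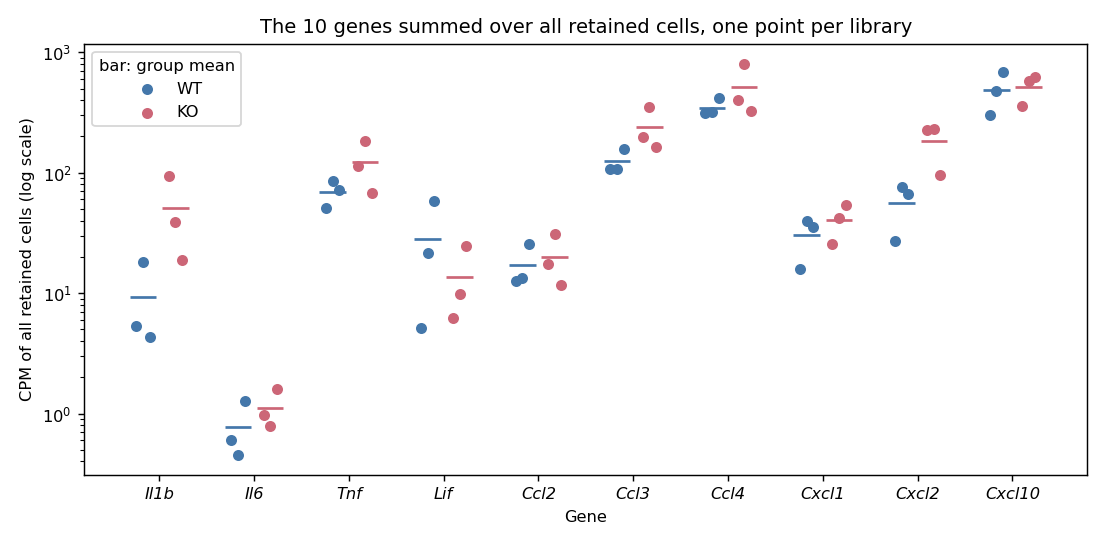
Points give the CPM of each gene (x axis) over all retained cells of 1 library on a log axis, blue for WT and red for KO, and bars the mean of 3 libraries. For *Il1b*, *Ccl3* and *Cxcl2* all 3 KO points lie above all 3 WT points, while for the other genes the groups overlap.

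*Il1b* stood at 5.37, 18 and 4.35 CPM in the WT libraries and 93.4, 39.3 and 18.9 CPM in the KO libraries over all cells, so the groups did not overlap. The log2 fold change was 2.43 ± 0.68 SE, and edgeR gave an adjusted p of 0.162. *Cxcl2* stood at 27.2, 76 and 66.5 CPM in the WT libraries and 226, 232 and 95 CPM in the KO libraries, again without overlap (log2 fold change 1.69 ± 0.43 SE, adjusted p = 0.137). *Ccl3* was closer, at 107, 108 and 158 CPM in the WT libraries and 196, 352 and 164 CPM in the KO libraries (log2 fold change 0.93 ± 0.30 SE, adjusted p = 0.208). Of all genes tested, 7.56% had every KO library above every WT library. With DESeq2 in place of edgeR, *Ccl3* and *Cxcl2* passed (adjusted p = 0.0258 and 0.0470). DESeq2 called 764 of 15178 genes, in place of 147 by edgeR. With a term for the libraries with *Xist*, edgeR called *Il1b* (adjusted p = 0.0139), and 215 of 15178 genes in all. In the 4 libraries without *Xist* the log2 fold changes were 2.61 for *Il1b*, 1.79 for *Cxcl2* and 0.97 for *Ccl3*, with edgeR adjusted p of 0.0695, 0.453 and 0.549.

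*Tnf* stood at 50.9, 85 and 71.7 CPM in the WT libraries and 113, 184 and 67.9 CPM in the KO libraries, and KO library 3 lay within the WT range (log2 fold change 0.81 ± 0.33 SE, edgeR adjusted p = 0.310). *Ccl4* stood at 310.3, 317 and 416 CPM in the WT libraries and 403, 806 and 327 CPM in the KO libraries, *Ccl2* at 12.6, 13.3 and 25.5 CPM in the WT libraries and 17.4, 31.3 and 11.6 CPM in the KO libraries, and *Il6* at 0.607, 0.451 and 1.26 CPM in the WT libraries and 0.980, 0.784 and 1.61 CPM in the KO libraries. For these 3 genes the groups overlapped, with edgeR adjusted p of 0.465, 0.853 and 0.645. For *Cxcl1*, *Cxcl10* and *Lif* the groups overlapped as well. *Cxcl1* stood at 15.9, 39.7 and 35.6 CPM in the WT libraries and 25.5, 42.5 and 54 CPM in the KO libraries, *Cxcl10* at 302, 479 and 685 CPM in the WT libraries and 358, 579.6 and 618 CPM in the KO libraries and *Lif* at 5.14, 21.7 and 57.9 CPM in the WT libraries and 6.25, 9.93 and 24.8 CPM in the KO libraries. *Lif* was the only member with a value below 0 (log2 fold change -1.02 ± 0.87 SE, edgeR adjusted p = 0.637). WT library 3 was the highest, and without it the log2 fold change of *Lif* was 0.12.

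The number of neutrophil-like cells moved with genotype, and *Il1b*, *Cxcl2* and *Ccl3* were the members with the largest neutrophil-like shares of UMIs. The WT libraries held 0, 31 and 1 neutrophil-like cells and the KO libraries 229, 61 and 48. This is 0.210% ± 0.345 of all WT cells against 2.17% ± 1.28 of all KO cells (SD, n = 3, two-sided exact permutation p = 0.1, the smallest p that 3 against 3 allows). In both groups the library with *Xist* held the most neutrophil-like cells. The 10 neutrophil markers together ranged from 4.01 to 113 CPM across WT libraries and from 971 to 2060.4 CPM across KO libraries over all cells, and all 10 were higher in every KO library. Monocyte-like cells went the other way, with 26, 18 and 8 of them from WT mice and 1, 3 and 0 from KO mice (exact p = 0.1). T and NK-like, PC-like, DCT-like and endothelial-like cells and some unnamed clusters also had exact p = 0.1. T and NK-like cells averaged 3.71% of WT cells against 1.73% of KO cells, and PC-like cells 6.32% against 3.40%. DCT-like cells averaged 7.42% of WT cells against 4.48% of KO cells, and endothelial-like cells 13% against 22.5%. Macrophage-like cells numbered 291, 131 and 122 for WT against 182, 155 and 69 for KO (exact p = 0.7). In a sum over all cells, more cells of a type and more RNA per cell cannot be told apart.

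**Figure D3:**
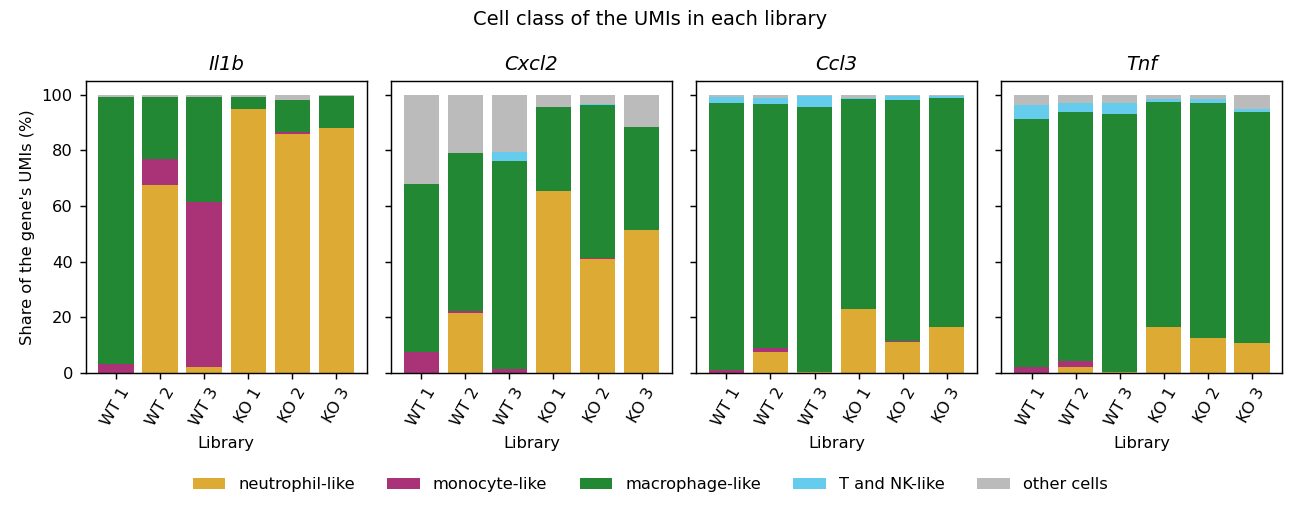
Bars give, for each library, the share of the UMIs of a gene that lay in neutrophil-like, monocyte-like, macrophage-like, T and NK-like and all other cells. Neutrophil-like cells make up the largest part of the *Il1b* bar in WT library 2 and in all 3 KO libraries.

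Of the *Il1b* UMIs neutrophil-like cells held 0%, 67.7% and 2.17% in the WT libraries and 94.9%, 86% and 87.9% in the KO libraries. In WT library 1 macrophage-like cells held 96.4%, and in WT library 3 the 8 monocyte-like cells held 59.4%. Of the *Cxcl2* UMIs neutrophil-like cells held 0%, 21.6% and 0% in the WT libraries and 65.4%, 40.8% and 51.5% in the KO libraries. For *Ccl3* and *Tnf* the share was smaller, at most 22.8% and 16.5%.

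When neutrophil-like cells were left out of the sum, the log2 fold change of *Il1b* went from 2.43 to -0.27 ± 0.26 SE, and that of *Cxcl2* from 1.69 to 0.78 ± 0.43 SE. Monocyte-like cells, fewer in KO, stayed in this sum with 147 *Il1b* UMIs in WT and 6 in KO, and their part was not tested. *Ccl3* went to 0.74 and *Tnf* to 0.63, while *Ccl4* and *Cxcl10* changed by little, to 0.53 and 0.12. With all 3 myeloid classes left out, *Cxcl2* stood at -0.43, *Ccl3* at -0.35, *Ccl4* at -0.44 and *Tnf* at -0.22, all below 0, and *Il1b* had too few UMIs to be tested. None of the values without these cells passed the threshold (edgeR adjusted p from 0.383 upward).

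**Figure D4:**
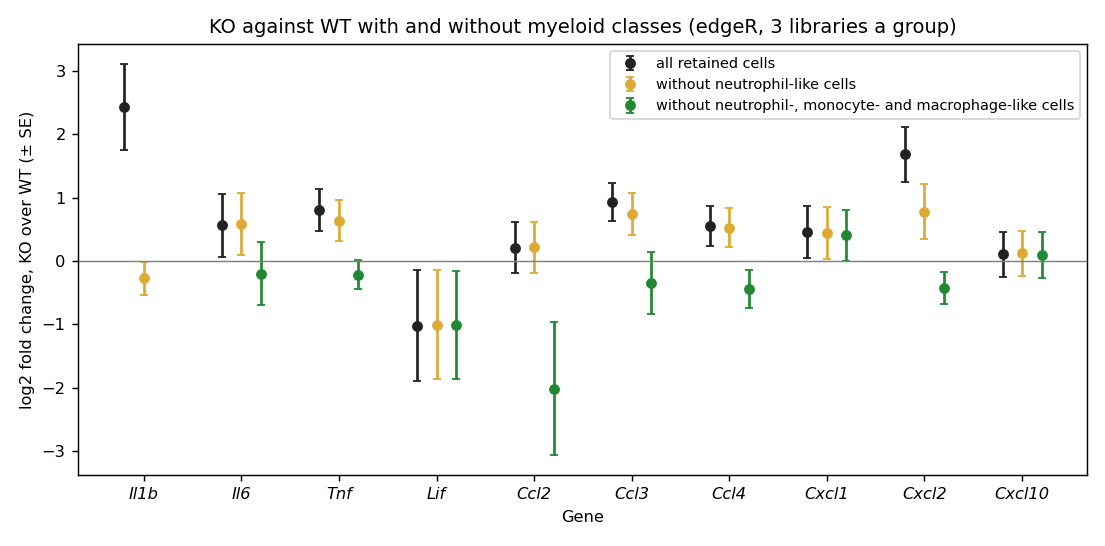
Points give the log2 fold change of KO over WT (y axis, bars ± SE, edgeR, 3 libraries a group) for each gene over all cells, without neutrophil-like cells, and without neutrophil-, monocyte- and macrophage-like cells. *Il1b* goes from 2.43 to -0.27 once neutrophil-like cells are left out, and *Lif*, *Cxcl1* and *Cxcl10* move by under 0.05 in both.

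Level per neutrophil-like cell was at hand in 4 libraries only, so genotype was not tested there. *Il1b* was 7148 CPM in WT library 2 and 4426 CPM or less in the KO libraries, and *Ccl3* was 4655 CPM in WT library 2 and 2239.6, 3191 and 4054 CPM in KO. *Cxcl2* was also highest in WT library 2, given above. *Tnf* and *Ccl4* in WT library 2, at 1057 and 957 CPM, lay within the KO ranges. The WT values rest on 31 cells.

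Macrophage-like cells, the main source of 4 members, were then compared on their own. Of the 9 members that passed the filter on low counts, none passed the threshold (edgeR), against 0.558% of 5021 genes, and 1 had an unadjusted p under 0.05, against 10.5% of genes. DESeq2 called none either. All 9 log2 fold changes were above 0, with a median of 0.50 against 0.01 over all genes of the class. *Il1b* per macrophage-like cell was nearly level, at 210.0 ± 53.5 CPM across WT and 214 ± 15.4 CPM across KO libraries (SD, n = 3), with a log2 fold change of 0.12 ± 0.23 SE (edgeR adjusted p = 0.904). *Tnf* averaged 4331 ± 2181 CPM across WT and 5818 ± 1048 CPM across KO libraries (SD, n = 3), *Ccl3* 8159 ± 5172 CPM across WT and 11761 ± 3538 CPM across KO libraries (SD, n = 3), *Ccl4* 23076 ± 12683 CPM across WT and 28474 ± 7747 CPM across KO libraries (SD, n = 3) and *Cxcl2* 2695 ± 1964 CPM across WT and 4271 ± 1167 CPM across KO libraries (SD, n = 3). Their log2 fold changes were 0.50 ± 0.35 SE, 0.60 ± 0.39 SE, 0.38 ± 0.35 SE and 0.72 ± 0.48 SE, with edgeR adjusted p from 0.620 to 0.756. In each of these 4 genes the groups overlapped.

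WT library 1 was the lowest of the 6 in 7 of the 10 members in macrophage-like cells. The summed level of 20 genes known to respond to tissue dissociation was also lowest there, 51407 CPM against 61716 to 78662 CPM in the other libraries, and its part in these values was not tested. After thinning to 1000 UMIs a cell, *Tnf* was found in 52.4%, 81.6% and 81.3% of cells in the WT libraries and 81.8%, 87.4% and 87.5% in the KO libraries. Over all libraries this was 74.3% of macrophage-like cells (73.7% unthinned), against 0.129% of podocyte-like cells, which should lack it. *Ccl4* was found in 68.9%, 92.9% and 92.3% of cells in the WT libraries and 90.5%, 96.6% and 92.9% in the KO libraries, and *Il1b* in 14.2%, 15.3% and 12.1% of cells in the WT libraries and 13.1%, 19.3% and 17.9% in the KO libraries. WT library 1 was again lowest for *Tnf* and *Ccl4*, but not for *Il1b*. Without WT library 1 the log2 fold changes were 0.12 for *Tnf*, 0.27 for *Ccl3*, 0.05 for *Ccl4* and 0.25 for *Cxcl2*.

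*Il6* had the smallest p of the members in macrophage-like cells, on few counts. The macrophage-like cells of the libraries held 4, 1 and 8 *Il6* UMIs in WT and 18, 7 and 22 in KO, or 5.42, 1.81 and 23.5 CPM in the WT libraries and 28.5, 13.4 and 92.3 CPM in the KO libraries, and WT library 3 lay above KO library 2. The log2 fold change was 2.27 ± 0.79 SE, and edgeR gave an adjusted p of 0.300.

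The difference in genotype effect between macrophage-like cells and all other cells was tested directly, as an interaction with the mouse as a block. Of the members, *Il1b* and *Ccl3* passed (edgeR adjusted p = 0.00979 and 0.0174), where 0.947% of 14255 genes did. The effect in macrophage-like cells minus that in the other cells was -3.53 ± 0.72 SE for *Il1b* and -1.68 ± 0.37 SE for *Ccl3* on the log2 scale. The other cells include neutrophil-like cells, whose number moved with genotype. With neutrophil-like and monocyte-like cells left out of the other cells, *Il1b* still passed (-2.82 ± 0.62 SE, edgeR adjusted p = 0.0391), and *Ccl3* turned to 1.09 ± 0.33 SE (adjusted p = 0.224). *Il1b* rests on few UMIs in those cells, 16 in podocyte-like, 13 in CNT-like and 8 in endothelial-like cells over all libraries. Free RNA carried *Il1b* at 2.25, 7.49 and 2.00 CPM in the WT libraries and 39.3, 8.58 and 6.59 CPM in the KO libraries, highest in KO library 1, and its part was not tested. In podocyte-, CNT- and endothelial-like cells *Il1b* lay under the free RNA level in every library and is not read as expression. Leaving out WT library 1, WT library 3 or any KO library ended both calls, and leaving out WT library 2 did not. The interaction was not fitted on the libraries without *Xist* alone.

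Members were also tested in each further class of which all libraries held 20 cells or more. Over 12 classes, macrophage-like cells included, 50 pairs of member and class passed the filter on low counts and 70 did not. Of the 50 pairs 2 passed the threshold, against 1.61% of all gene and class pairs, and 13 had an unadjusted p under 0.05, 9 higher and 4 lower in KO, against 12.2%. The 2 calls were *Cxcl1* in macula densa-like cells and *Cxcl10* in podocyte-like cells, both higher in KO. By class the share of genes called was 2.81% in CNT-, 1.27% in DCT-, 0.223% in DLH-, 0.476% in IC-, 4.53% in LOH-, 2.59% in PC-, 0.0256% in T and NK-, 0.195% in endothelial- and 0.087% in stromal and mesangial-like cells.

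**Figure D5:**
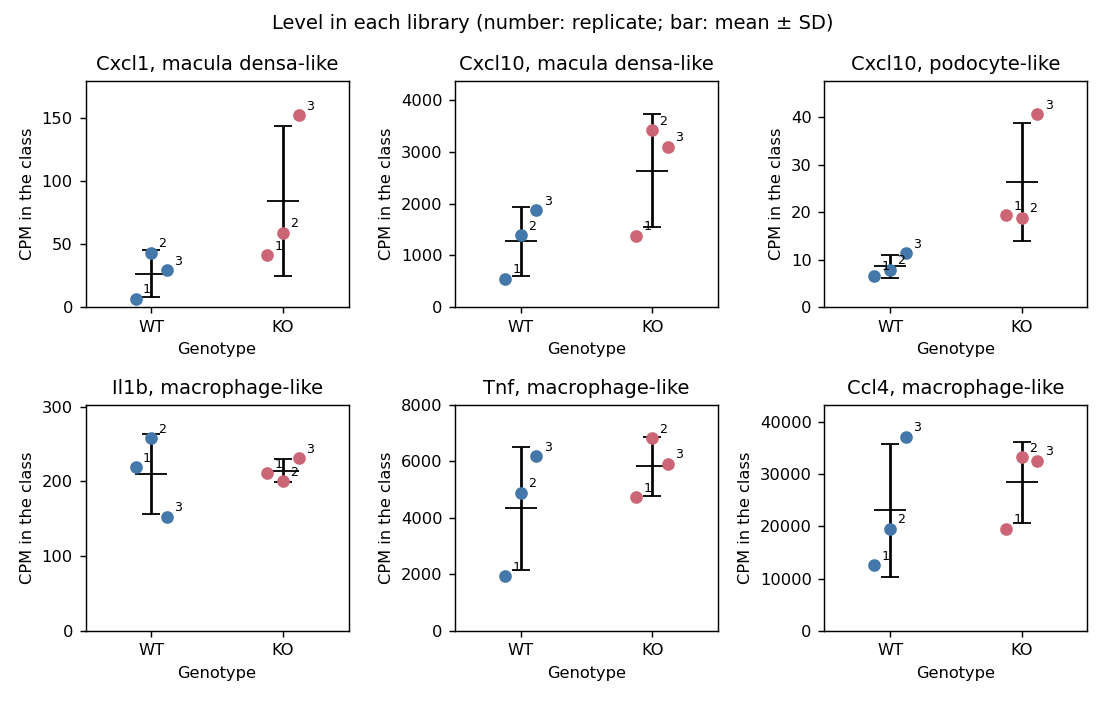
Points give the CPM of a gene in 1 class of 1 library, numbered by replicate, with mean ± SD over 3 libraries in black. In macula densa-like cells *Cxcl1* reaches 153 CPM in KO library 3 with overlap of the groups at its lower end, in podocyte-like cells all 3 KO values of *Cxcl10* lie above WT, and in macrophage-like cells WT library 1 is lowest for *Tnf* and *Ccl4*.

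The macula densa is the plaque of tubular cells that senses salt at the glomerulus. There *Cxcl1* stood at 6.56, 43.4 and 29.5 CPM in the WT libraries and 41.3, 59 and 153 CPM in the KO libraries, from 47 to 77 cells per library, and KO library 1 lay just below WT library 2. By edgeR, KO exceeded WT by 1.81 ± 0.42 SE on the log2 scale (adjusted p = 0.0266), where 1.29% of 6341 genes were called. In the 4 libraries without *Xist* it was 2.77 ± 0.48 SE (edgeR adjusted p = 0.00716). The call was lost with DESeq2 (adjusted p = 0.9996), without WT library 1, WT library 3 or KO library 3 (log2 fold changes 1.30, 1.87 and 0.97), and with classes taken from single-cell marker scores. Macula densa-like cells had a median of 36.7% mitochondrial UMIs. At no more than 30%, edgeR tested 1855 genes in this class in place of 6341 and called 3, so results for the class lean on the wider limit. Free RNA carried *Cxcl1* at 8.85 to 35.1 CPM, and 5 of the 6 macula densa values lay above that of their own library. Neutrophil markers there summed to at most 5.59 CPM across WT and to 5.64, 1.79 and 64.7 CPM across KO libraries, the highest in the library with the highest *Cxcl1*, and their part was not tested.

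*Cxcl10* in macula densa-like cells stood at 546, 1386 and 1878 CPM in the WT libraries and 1385, 3419 and 3100.2 CPM in the KO libraries, with a log2 fold change of 1.10 ± 0.28 SE and an edgeR adjusted p of 0.0522, just short of the threshold. KO library 1 lay within the WT range. Of the NF-kB list (subunits, inhibitors and induced genes), 15 of 29 genes were tested in this class, and 2 were called higher in KO and none lower. They were *Lcn2*, which encodes the iron-siderophore binding protein lipocalin 2 (log2 fold change 2.41 ± 0.32 SE, adjusted p = 0.000143, 13.1, 6.99 and 10.4 CPM across WT and 63.9, 50.1 and 47.6 CPM across KO libraries), and *Nfkbiz*, which encodes the nuclear IκBζ (log2 fold change 1.13 ± 0.18 SE, adjusted p = 0.00111, 81.3, 108 and 69.3 CPM across WT and 189.8, 189.6 and 173 CPM across KO libraries). *Ptgs2*, also of the NF-kB list and a marker of this class, missed the threshold with a log2 fold change of -1 ± 0.26 SE (edgeR adjusted p = 0.0576). It stood at 269, 645 and 350 CPM across WT and 111, 225 and 271 CPM across KO libraries, with overlap of the groups. Of the STAT3 feedback list 6 of 10 were tested and *Socs2* rose (log2 fold change 1.14 ± 0.20 SE, adjusted p = 0.00189, 66.9, 47.6 and 53.7 CPM across WT and 111, 132 and 118 CPM across KO libraries). Free RNA carried *Lcn2* at 6.76, 9.83 and 5.16 CPM for WT against 50.3, 31.1 and 26.7 CPM for KO, which moved with genotype, and 5 of the 6 macula densa values lay above that of their own library. Free RNA carried *Nfkbiz* at 70.0, 93.3 and 73.6 CPM for WT against 91, 75.9 and 110.4 CPM for KO and *Socs2* at 49.3, 70.0 and 46.3 CPM for WT against 70.5, 56.8 and 95.3 CPM for KO, with overlap of the groups. The part of free RNA in these calls was not tested. *Spp1*, which encodes osteopontin, was the 1 of 7 other cytokines and chemokines tested there that rose. These genes of the lists were named after their values were seen.

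In podocyte-like cells *Cxcl10* stood at 6.57, 7.87 and 11.3 CPM in the WT libraries and 19.4, 18.8 and 40.6 CPM in the KO libraries, all KO above all WT, as 12.1% of genes of the class were (log2 fold change 1.56 ± 0.32 SE, edgeR adjusted p = 0.0371, where 1.85% of 10337 genes were called). All 6 values lie under the free RNA level of their libraries, so expression by podocytes cannot be read from them. The free RNA level was 146, 228 and 241 CPM in the WT libraries and 185, 177 and 217 CPM in the KO libraries, with overlap of the groups, and its part in the call was not tested. Neutrophil markers in podocyte-like cells summed to 1.09 to 2.01 CPM for WT against 8.55 to 28.6 CPM for KO, and macrophage markers to 16.1 to 25.5 CPM for WT against 16 to 33.4 CPM for KO. In the 4 libraries without *Xist* the adjusted p was 0.0673 (edgeR), and the call was also lost without any one WT library or when no doublets were removed.

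Genes of these lists were called in both directions in other classes, and are named here after their values were seen. In LOH-like cells 2 of 23 NF-kB genes rose in KO (*Cebpb*, *Nfkbiz*), 2 of 9 STAT3 feedback genes rose (*Socs2*, and *Socs3*, which dampens gp130 signalling) and 1 of 7 mRNA decay genes rose (*Zfp36*), while *Cxcl12* and *Pycard* fell. In the same cells 4 of 20 dissociation genes rose (*Dnaja1*, *Dnajb1*, *Fos*, *Hspa8*), 1 fell (*Nr4a1*) and 12 had an unadjusted p under 0.05. In PC-like cells *Lcn2* and *Socs3* rose, *Spp1* fell, and 3 of 20 dissociation genes rose (*Fos*, *Hspb1*, *Jun*). *Nfkbiz* rose in IC-like cells, and in DCT-like cells *Spp1* and *Lifr* rose and *Ccl5* fell. In CNT-like cells *Btg2*, a dissociation gene, fell. In podocyte-like cells *Stat3* rose (log2 fold change 0.67 ± 0.10 SE, adjusted p = 0.00971, 261, 261 and 211 CPM across WT and 384, 400.4 and 390.3 CPM across KO libraries). The part of dissociation in the other calls was not tested.

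The other pairs of member and class missed the threshold. *Lif* in podocyte-like cells had a log2 fold change of -1.47 ± 0.33 SE (edgeR adjusted p = 0.0518) at 6.57, 5.36 and 9.47 CPM in the WT libraries and 2.68, 2.06 and 2.99 CPM in the KO libraries. Free RNA carried *Lif* at 4.51, 15.8 and 30.7 CPM in the WT libraries and 4.31, 4.42 and 15.9 CPM in the KO libraries, so 5 of the 6 podocyte-like values lay under that of their own library and are not read as expression. *Cxcl10* in stromal and mesangial-like cells stood at 57, 491 and 219 CPM in the WT libraries and 50.5, 40.4 and 64.2 CPM in the KO libraries (log2 fold change -2.31 ± 0.54 SE, edgeR adjusted p = 0.141). All of these values but that of WT library 2 lay under the free RNA level of their own library, given above, and are not read as expression. In LOH-like cells, the largest pool of *Cxcl10*, it averaged 937 ± 316 CPM across WT and 816 ± 135 CPM across KO libraries (SD, n = 3) (log2 fold change -0.20 ± 0.21 SE, edgeR adjusted p = 0.692). In PC-like cells *Lif* had a log2 fold change of -0.60 ± 0.72 SE (edgeR adjusted p = 0.778). In DLH-like cells *Cxcl1* had -0.45 ± 0.39 SE and *Cxcl2* -1.42 ± 0.60 SE, with edgeR adjusted p of 0.765 and 0.434.

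The genes around the members were read from 7 fixed lists, by count beside the 0.969% called over all cells. Of 54 other cytokines and chemokines 40 were tested over all cells, and 3 rose in KO and none fell. These were *Cxcl3*, a further CXCR2 ligand (log2 fold change 3.00 ± 0.42 SE, adjusted p = 0.0321, 0.0319, 0.197 and 0.158 CPM across WT and 1.22, 1.05 and 0.923 CPM across KO libraries), *Il1rn*, the natural antagonist of the IL-1 receptor (log2 fold change 2.03 ± 0.30 SE, adjusted p = 0.0403, 1.47, 2.17 and 0.883 CPM across WT and 6.67, 7.53 and 4.29 CPM across KO libraries), and *Il33*, an alarmin of the IL-1 family (log2 fold change 1.94 ± 0.28 SE, adjusted p = 0.0335, 0.862, 0.733 and 0.442 CPM across WT and 3.15, 2.79 and 1.81 CPM across KO libraries). All were low, and the median log2 fold change of the list was 0.03. Of the receptors of the members 15 of 16 were tested and none was called by edgeR, 10 having an unadjusted p under 0.05, with a median of 0.54. Their highest log2 fold changes were of *Cxcr2* (3.51), *Ccr1* (3.51) and *Il1r2* (2.99), and *Cxcr2* is also 1 of the neutrophil markers.

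All 29 genes of the NF-kB list were tested over all cells, and 2 rose in KO and none fell (median 0.07). *Lcn2* was far apart between the groups (log2 fold change 3.00 ± 0.11 SE, adjusted p = 0.000171, 14.9, 14.9 and 12.3 CPM across WT and 132, 106 and 95.6 CPM across KO libraries). *Saa3*, an acute-phase serum amyloid gene, was nearly absent in WT, at 0, 0.0282 and 0.0631 CPM, and stood at 2.27, 3.53 and 2.77 CPM in KO (edgeR adjusted p = 0.00119), too low in WT for a fold. Of 10 STAT3 feedback genes 1 rose, *Osmr*, the oncostatin M receptor subunit (log2 fold change 1.05 ± 0.17 SE, adjusted p = 0.0496, 3.83, 5.10 and 3.15 CPM across WT and 8.94, 8.84 and 7.10 CPM across KO libraries). Of 7 genes of IL-1 processing and the inflammasome 2 rose, *Il1rn*, also in the first list, and *Casp4*, the caspase that senses cytosolic lipopolysaccharide (log2 fold change 1.03 ± 0.16 SE, adjusted p = 0.0466, 6.48, 8.99 and 6.59 CPM across WT and 15.6, 17.5 and 11.8 CPM across KO libraries), and 1 fell, *Pycard*, the adaptor ASC (log2 fold change -0.66 ± 0.09 SE, adjusted p = 0.0302, 32.2, 29.2 and 25.9 CPM across WT and 19.3, 17.9 and 17.3 CPM across KO libraries). Of 7 genes of cytokine mRNA decay and 20 of dissociation stress none was called over all cells by edgeR, with 0 and 3 at an unadjusted p under 0.05. The dissociation genes summed to 13404 to 17999 CPM for WT against 17007 to 20122 CPM for KO, with overlap of the ranges, and their part in the members' values was not tested.

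Over all cells the neutrophil markers also moved with genotype, as given above, so the lists were summed again without neutrophil-like cells, an alternative chosen after seeing the data. Without them *Il33* (log2 fold change 1.96 ± 0.28 SE, adjusted p = 0.0447), *Lcn2* (1.93 ± 0.28 SE, adjusted p = 0.0492) and *Pycard* (-0.65 ± 0.09 SE, adjusted p = 0.0435) were called by edgeR in the same directions. *Osmr* had 1.07 ± 0.17 SE, adjusted p = 0.0644, and *Casp4* 0.25 ± 0.15 SE, adjusted p = 0.500. *Il1rn* turned to -2.88 ± 0.59 SE, adjusted p = 0.101, and *Cxcl3*, *Saa3* and *Ccr1* had too few UMIs to be tested. *Cxcr2* went to 0.53 and *Il1r2* to -0.05, and the median of the receptors to 0.23.

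In macrophage-like cells 1 gene of these lists was called. *Pf4*, the chemokine CXCL4, fell in KO (log2 fold change -3.27 ± 0.68 SE, adjusted p = 0.0499, 98.8, 19.9 and 96.7 CPM across WT and 1.59, 9.54 and 12.6 CPM across KO libraries), 1 of 18 other cytokines and chemokines tested there. None of 22 NF-kB, 6 STAT3 feedback, 6 receptor, 7 mRNA decay, 5 IL-1 processing and 20 dissociation genes was called by edgeR in these cells, with 2, 1, 1, 0, 1 and 1 at an unadjusted p under 0.05.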

How the data were processed

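Renal cortex cells of 3 WT and 3 *Prdm16* KO mice were profiled with BD Rhapsody. Per the study's methods the authors aligned reads to mm10 with GENCODE vM23 in the BD pipeline and deposited raw UMI counts per gene and barcode. Scanpy 1.8 is named in the submitters' processing notes. Barcodes with 500 to 60000 UMIs, 200 to 8000 genes and at most 50% mitochondrial UMIs were kept. Scrublet's own threshold marked under 0.5% of cells in each library and was not used, and the top 6% of scores were removed instead. Cells were clustered (scanpy 1.11.5, 2000 variable genes without the members, 30 components, 15 neighbours, Leiden 0.10.2) into 32 clusters, of which 3 stayed unnamed.

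UMIs were summed per library and class and tested with edgeR 4.0.16 (quasi-likelihood, TMM, filterByExpr with a minimum count of 10, Benjamini-Hochberg over all genes of a class, two-sided). The form of glmQLFit with bias-adjusted residual degrees of freedom was used after the default gave an infinite prior in some fits, and the default is an added alternative. The tests were checked on simulated counts. Other choices tried were DESeq2 1.42.0, no filter, leaving out each library, blocks, at most 30% mitochondrial UMIs, no doublet removal and classes by marker score. The gene lists without neutrophil-like cells were added after seeing the data. Each library is 1 mouse per its label.

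The members and lists were chosen with earlier results of these data known. Named were the 10 members, from each list up to 4 called genes per direction in the sum of all cells and within the macrophage-like class, and the 3 genes most like each member over classes (mean CPM of libraries with at least 5 cells of the class). Coordinates come from GENCODE vM21 and promoters from RefSeq, both GRCm38.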

Additional observations from a re-analysis of the deposited data

Results flagged for a closer look

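The effect of genotype on summed UMIs differed between macrophage-like cells and all other cells for 2 of the 10 genes, by the edgeR interaction test. Neutrophil-like cells, whose number moved with genotype, held 436 of 946 *Il1b* UMIs in WT and 4086 of 4426 in KO. In such a sum more cells and more RNA per cell cannot be told apart. For *Il1b* the log2 effect in macrophage-like cells minus that in the others was -3.53 ± 0.72 SE (adjusted p = 0.00979), and for *Ccl3* it was -1.68 ± 0.37 SE (adjusted p = 0.0174). With neutrophil-like and monocyte-like cells left out of the other cells, *Il1b* had -2.82 ± 0.62 SE (adjusted p = 0.0391), while *Ccl3* turned to 1.09 ± 0.33 SE (adjusted p = 0.224). There *Il1b* rests on few UMIs, 16 in podocyte-like, 13 in CNT-like and 8 in endothelial-like cells. Its levels in those classes lay under the free RNA of each library. Both calls ended in 5 of the 6 fits that left out a library. With groups of 3 libraries, single libraries were not tested as outliers.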

How the results depend on the processing

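Depth limited *Il6* most, with 165 UMIs in all, and 3 mice a group limited every test. The count of members called over all cells was 0 by edgeR, 2 with DESeq2, 1 with a term for libraries with *Xist*, 1 at no more than 30% mitochondrial UMIs, and 0 in each fit that left out a library. Over all genes the first 3 of these fits called 147, 764 and 215 of 15178. At no more than 30% mitochondrial UMIs 553 of 14116 genes were called. The 2 calls within classes became 8 with no filter on low counts, 1 with classes from marker scores and 1 to 3 with a library left out. Without the filter more genes were tested, such as 17835 in place of 10337 in podocyte-like cells. Pairs outside the 50 of the main fit could then be called, so 8 and 2 are not counts over the same pairs. The 2 interaction calls became 1 with neutrophil-like and monocyte-like cells left out of the other cells, 5 with the edgeR default residual degrees of freedom, and 0 to 2 with a library left out. Over all genes the main interaction called 135 of 14255. It called 43 of 14193 with those cells left out and 240 of 14255 with the default. The cause of these moves was not tested.

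Whether the replicate numbers pair the mice was not settled. The deviations of same-numbered WT and KO libraries correlated at 0.27, -0.06 and 0.29, and those of differently numbered libraries at -0.40 to 0.17. With the replicate block the calls within classes numbered 7, *Il6* in macrophage-like cells (log2 fold change 2.29), *Cxcl10* in macula densa-like cells (1.16) and *Lif* in podocyte-like cells (-1.43) among them, and it changed no call for the other 28 single results to which it was applied. Calls over all genes also rose with the block in these classes. They went from 28 to 55 of 5021 in macrophage-like, 82 to 107 of 6341 in macula densa-like and 191 to 577 of 10337 in podocyte-like cells. In some other classes they fell, as from 488 to 388 of 10781 in LOH-like cells.

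The KO minus WT difference in macrophage-like share was -0.78 percentage points and -1.34 to 0.268 with a library left out, turning without WT library 1. The mean share of *Ccl4* UMIs in macrophage-like cells went from 95.2% to 93.8% with classes from marker scores. That of *Cxcl1* in DLH-like cells went from 16.4% to 26.3% at no more than 30% mitochondrial UMIs and 1.76% with marker scores, and that of *Cxcl10* in LOH-like cells from 38.3% to 3.40% at no more than 30% mitochondrial UMIs.

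Of 561 alternative values for 41 single results, 497 kept their direction and side of the threshold, 20 fell out of the calls, 22 entered them and 22 turned. Over all cells, log2 fold changes turned without the 3 myeloid classes for *Ccl2* (-2.01), *Ccl3* (-0.35), *Ccl4* (-0.44), *Cxcl2* (-0.43), *Il6* (-0.20) and *Tnf* (-0.22), without neutrophil-like cells for *Il1b* (-0.27) and with no mitochondrial limit for *Cxcl10* (-0.0069). With a library left out they ran from -0.23 (KO library 2) to 0.66 for *Ccl2*, from -0.16 (WT library 1) to 0.48 for *Cxcl10*, also turning without KO library 3 (-0.12), and from -1.89 to 0.12 (WT library 3) for *Lif*. In macrophage-like cells they ran from -0.0095 to 0.95 for *Ccl2* and -0.086 to 0.56 for *Cxcl10*, turning without WT library 1 and for *Cxcl10* also without KO library 3 (-0.080), and from -0.0085 (WT library 3) to 0.32 for *Il1b*. Interaction values turned for *Ccl3* (1.09), *Ccl4* (0.93), *Cxcl2* (1.44) and *Tnf* (0.87) with neutrophil-like and monocyte-like cells left out, and ran from -8.75 (KO library 2) to 1.06 for *Lif*, also turning without WT library 3 (-0.85).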
